A study of Mus musculus with 6 samples.

Results

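The Wnt pathway genes were examined in ventricular tissue of 8-week-old mice, in 3 wild-type arrays and 3 arrays of mice with a transgene for an activated Akt (caAkt) restricted to the heart. Members were all genes whose symbol begins with Wnt or Fzd and a digit, together with Porcn and named secreted inhibitors, co-receptors, relay proteins and nuclear factors of the pathway. This gave 53 of the 18193 genes measured, each read from its probe set with the highest mean over the 6 arrays. The members were taken by symbol, but they were chosen with earlier results of these data known. Tcf7 was not named by any probe set used here, and Sfrp3 is measured under its other symbol, Frzb. The symbol Fzd10os denotes a transcript from the strand opposite Fzd10. It is counted among the 53 but is not a receptor.

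The groups differ by the transgene alone as far as the labels say. The promoter that drives the transgene, the strain and the sex are not stated there, and nothing given states a separate animal for every array. The p-values therefore rest on the spread between these 6 samples alone, and part of it may be technical. The design text places the model in the development of heart failure, and the comparison asks which genes differ in ventricles with an activated Akt.

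Wnt proteins are secreted lipid-modified ligands that bind Frizzled (Fzd) receptors and the co-receptors Lrp5 and Lrp6. In the canonical branch the receptor complex recruits Dishevelled (Dvl) and Axin, which spares β-catenin (Ctnnb1) from a destruction complex containing the kinase Gsk3b, and β-catenin then acts with Tcf/Lef factors on target genes. Secreted Frizzled-related proteins (Sfrp, Frzb), Wif1 and the Dickkopf (Dkk) proteins act outside the cell, mostly as antagonists. The adult heart has low canonical activity as a rule, and Wnt genes are best known there from development and from scar formation after injury.

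The largest differences lay in the extracellular and receptor layers. Sfrp2, Fzd2, Frzb, Sfrp1, Fzd1 and Dkk3 were 2.37-fold to 6.10-fold higher in caAkt hearts. No ligand rose, and neither Ctnnb1 nor Axin2, the feedback gene most often read as a sign of canonical activity, passed the test. In bulk tissue, a difference in the number of cells of a type and one in RNA per cell cannot be told apart. At an adjusted p under 0.05 (limma, Benjamini-Hochberg over all genes), which is meant wherever a gene is said to be called, to have risen or to have fallen, 10 of the 53 members rose and 2 fell. That is 22.6% of members, against 28.5% of all genes. For rises the shares were 18.9% and 16.1%, and for falls 3.77% and 12.4%. The share of members called was thus no larger than the background. A change of at least 2-fold was called for 6 members, and for 3.44% of all genes. The median log2 fold change was -0.06 over the members and -0.04 over all genes.

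Promoters are shown for the members with the largest rises for which a promoter was given, Sfrp2, Frzb and Fzd1, and for Fzd7 and Wnt11, the called members whose promoter held a word of the Tcf/Lef type. The sequences are RefSeq's for mouse assembly GRCm38.p6, run 5′ to 3′ along the gene's strand, and reach from 250 bases before to 50 bases after the annotated start. That of Sfrp2 is at chr3:83766071-83766370 (+ strand), of Frzb at chr2:80447347-80447646 (- strand) and of Fzd1 at chr5:4758167-4758466 (- strand). That of Fzd7 is at chr1:59481897-59482196 and that of Wnt11, the more upstream of 2, at chr7:98834862-98835161, both on the + strand. Capitals mark a match on either strand to the word CTTTGAA, to the word CTTTGAT, to the word CTTTGTA or to the word CTTTGTT, words of which none overlaps another, and a match on the opposite strand shows as its reverse complement.
Sfrp2: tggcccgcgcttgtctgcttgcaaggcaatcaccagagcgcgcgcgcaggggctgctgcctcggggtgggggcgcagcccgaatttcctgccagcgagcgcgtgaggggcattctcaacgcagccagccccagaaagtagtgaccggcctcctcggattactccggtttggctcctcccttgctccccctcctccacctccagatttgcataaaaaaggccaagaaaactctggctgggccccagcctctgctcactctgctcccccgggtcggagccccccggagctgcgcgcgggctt
Frzb: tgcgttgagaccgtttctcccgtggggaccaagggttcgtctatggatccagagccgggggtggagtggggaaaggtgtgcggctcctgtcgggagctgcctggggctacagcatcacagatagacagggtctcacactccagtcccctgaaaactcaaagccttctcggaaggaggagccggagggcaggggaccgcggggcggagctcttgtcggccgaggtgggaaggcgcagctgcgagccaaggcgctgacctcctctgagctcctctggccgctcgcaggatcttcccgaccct
Fzd1: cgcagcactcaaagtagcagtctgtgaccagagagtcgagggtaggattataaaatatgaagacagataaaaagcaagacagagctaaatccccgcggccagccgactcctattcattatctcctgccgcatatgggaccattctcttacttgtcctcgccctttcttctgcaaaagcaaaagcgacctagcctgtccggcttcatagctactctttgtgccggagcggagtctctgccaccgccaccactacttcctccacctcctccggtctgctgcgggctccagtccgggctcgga
Fzd7: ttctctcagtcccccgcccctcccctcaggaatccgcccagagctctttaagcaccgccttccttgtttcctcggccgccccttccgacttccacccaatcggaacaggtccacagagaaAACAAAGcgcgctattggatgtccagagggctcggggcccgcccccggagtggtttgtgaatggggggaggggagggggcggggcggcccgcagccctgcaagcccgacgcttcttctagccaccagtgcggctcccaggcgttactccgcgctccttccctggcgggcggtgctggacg
Wnt11: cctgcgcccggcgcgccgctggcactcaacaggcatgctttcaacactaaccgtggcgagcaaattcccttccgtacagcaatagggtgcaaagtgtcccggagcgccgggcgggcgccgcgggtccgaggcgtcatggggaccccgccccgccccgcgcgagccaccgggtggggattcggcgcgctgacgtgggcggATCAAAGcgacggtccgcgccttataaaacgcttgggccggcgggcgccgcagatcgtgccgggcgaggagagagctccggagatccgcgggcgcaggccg

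The table gave 45 promoters for 37 members, among them 7 promoters of 6 of the 12 called members. A word was found in 7 of the 45 (15.6%), against 16.9% of the 32851 promoters of all genes. In Fzd7 the word begins 130 bases before the start and in Wnt11 51 bases before it. The promoters of Sfrp2, Frzb, Fzd1, Wif1 and Axin2 held none of the 4 words. Member promoters had a median GC content of 67.3% and a median of 26 CpG dinucleotides, against 52.7% and 7 over all promoters. A match is a description of letters and not a site.

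The secreted inhibitors were the role with the largest changes: 5 of 9 rose (55.6%, against 16.1% of all genes) and 0 fell (against 12.4%). Sfrp2, which binds Wnt proteins and is also known as a matrix-associated protein, stood at log2 values of 5.99, 6.25 and 5.99 in the wild-type arrays and 7.85, 9.06 and 9.15 in the caAkt arrays. The groups were far apart, and caAkt replicate 1 was the lowest of its group by more than 1 log2 unit. The mean difference was 2.61 ± 0.29 on the log2 scale (SE), which is 6.10-fold (adjusted p = 0.000188). Without caAkt replicate 1 it was 3.03, and without caAkt replicate 3 it was 2.38. Sfrp2 had only 1 probe set, so no second reading was available. Its wild-type values lay near the 25th percentile of all genes (a mean log2 value of 5.99), so the ratio was taken against a dim baseline.

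Frzb, the third Frizzled-related protein, stood at 9.09, 9.07 and 8.76 in wild-type and 10.40, 10.71 and 10.75 in caAkt arrays. Its groups were well separated, with a log2 fold change of 1.65 ± 0.12 (adjusted p = 1.56e-05). Sfrp1, a close relative of Sfrp2, was at 8.38, 8.51 and 8.57 against 9.72, 10.38 and 10.05, a log2 fold change of 1.57 ± 0.15 (adjusted p = 6.48e-05). Dkk3, the divergent member of the Dickkopf family, was at 7.64, 7.58 and 7.23 against 8.35, 8.80 and 9.03, a log2 fold change of 1.24 ± 0.17 (adjusted p = 0.000579). In each of these genes every caAkt value lay above every wild-type value, and caAkt replicate 1 was the lowest caAkt array.

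Wif1, which binds Wnt proteins directly, showed a smaller rise. Its values were 9.00, 8.56 and 8.72 in wild-type and 9.50, 9.40 and 8.95 in caAkt arrays, so the groups overlapped, with a log2 fold change of 0.52 ± 0.15 (adjusted p = 0.0328). Leaving out wild-type replicate 2, wild-type replicate 3, caAkt replicate 1 or caAkt replicate 2 ended the call (adjusted p 0.0855 to 0.124). The remaining inhibitors were not called. Sfrp4 had a log2 fold change of -0.27 (95% confidence interval -0.49 to -0.05, adjusted p = 0.0652), opposite in sign to its relatives. It was called lower under 4 of 15 alternatives, among them a renewed quantile normalization (-0.32, adjusted p = 0.0328) and array weights (-0.35, adjusted p = 0.0156). Sfrp5, Dkk1 and Dkk2 had values of 0.04, -0.09 and -0.09.

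**Figure D1:**
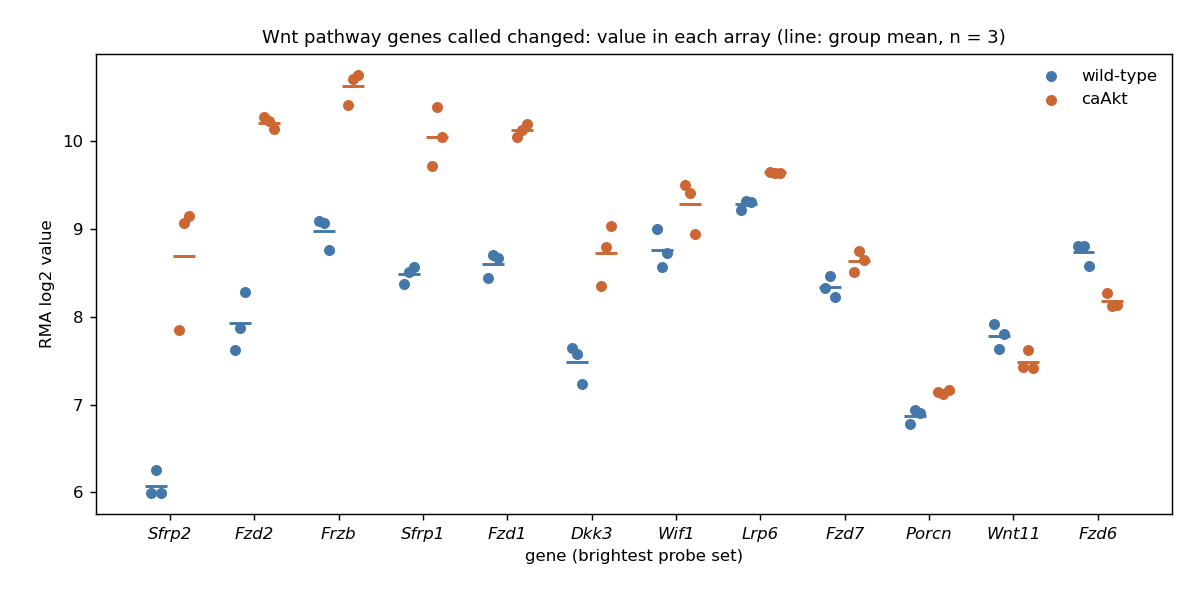
RMA log2 value (vertical axis) of the 12 Wnt pathway genes called changed, in each wild-type array (blue) and each caAkt array (orange), with a line at each group mean. For every gene except Wif1 the values of the groups do not overlap, and the widest spread is that of Sfrp2 among the caAkt arrays, from 7.85 to 9.15.

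Among the 10 Frizzled receptor genes, 3 rose (30%, against 16.1% of all genes), 1 fell (10%, against 12.4%) and 6 were not called. Fzd2 stood at 7.63, 7.87 and 8.28 in wild-type and 10.27, 10.22 and 10.14 in caAkt arrays. The caAkt arrays lay within a narrow band above all wild-type arrays, 4.88-fold higher on average (2.29 ± 0.14 on the log2 scale, adjusted p = 7.26e-06). Fzd1 was at 8.44, 8.71 and 8.66 against 10.05, 10.12 and 10.19, which was 2.86-fold higher (1.52 ± 0.09 on the log2 scale, adjusted p = 4.62e-06). Fzd7, which with Fzd1 and Fzd2 forms one subfamily by sequence, was at 8.33, 8.47 and 8.22 against 8.51, 8.75 and 8.65. Its rise was small, 0.29 ± 0.09 (adjusted p = 0.0369). The call ended when wild-type replicate 1, wild-type replicate 3, caAkt replicate 2 or caAkt replicate 3 was left out (adjusted p 0.0867 to 0.128), and after a renewed quantile normalization (0.24, adjusted p = 0.0820).

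Fzd6, a receptor linked mainly to tissue polarity, was the one Frizzled gene that fell. Its values were 8.81, 8.81 and 8.58 in wild-type and 8.27, 8.13 and 8.14 in caAkt arrays, with no overlap and a log2 fold change of -0.55 ± 0.09 (adjusted p = 0.00121). Fzd3, its nearest relative, was at -0.12 and not called. The uncalled receptors (Fzd3, Fzd4, Fzd5, Fzd8, Fzd9 and Fzd10) had log2 fold changes of -0.19 to 0.12, and their 95% confidence intervals together ran from -0.37 to 0.31. Of the co-receptors, Lrp6 rose from 9.22, 9.32 and 9.31 to 9.64, 9.64 and 9.64, a log2 fold change of 0.36 ± 0.07 (adjusted p = 0.00302). The 3 caAkt values of Lrp6 were nearly identical, and its call was lost when its probe sets were averaged (0.25, adjusted p = 0.0938). Lrp5 (0.10, interval -0.26 to 0.46) and the tyrosine kinase receptors Ror1 (0.02) and Ror2 (0.04), which serve Wnt5a in the noncanonical branch, were not called.

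No ligand was called higher in the fit used throughout, against 16.1% of all genes. Of the 19 Wnt genes, Wnt11, a noncanonical ligand used in heart development, was called lower (5.26%, against 12.4% of all genes). It stood at 7.92, 7.64 and 7.80 in wild-type and 7.43, 7.62 and 7.42 in caAkt arrays, where the highest caAkt array lay just under the lowest wild-type array. The log2 fold change was -0.30 ± 0.09 (adjusted p = 0.0403). The call did not survive leaving out wild-type replicate 1, wild-type replicate 3, caAkt replicate 1 or caAkt replicate 3 (adjusted p 0.0893 to 0.124), nor centring each array on its median (-0.28, adjusted p = 0.0526). The other ligands had log2 fold changes of -0.33 to 0.23, and their 95% confidence intervals reached from -0.64 to 0.42. A 2-fold change in the signal of the probe set used thus lay outside the interval of each. This covers the signal only, because whether the dimmest ligands were above background was not tested. Another probe set of Wnt5a gave -1.21. Values below 0 were found for 17 of the 19 ligands, against 10442 of all 18193 genes, and for 15 after a renewed quantile normalization and 16 after median centring.

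In 4 pairs, ligand genes are next to each other among the protein-coding genes of the RefSeq table. These are Wnt6 with Wnt10a (-0.06 and -0.08), Wnt3a with Wnt9a (-0.10 and 0.23), Wnt9b with Wnt3 (-0.01 and -0.02) and Wnt10b with Wnt1 (0.00 and -0.17). None of these 8 genes was called. Wnt9a came nearest, with an adjusted p of 0.0582 and groups that did not overlap. It was called higher under 4 of 15 alternatives: median centring (0.25, adjusted p = 0.0435), array weights (0.24, adjusted p = 0.0283), dim genes left out (0.23, adjusted p = 0.0471) and without wild-type replicate 3 (0.29, adjusted p = 0.0303). A filter that removed the dimmest genes (under the 25th percentile) kept 15 of the 19 ligands and 47 of all 53 members. Porcn, the enzyme that attaches the lipid to Wnt proteins, rose from 6.77, 6.94 and 6.91 to 7.14, 7.12 and 7.17, a log2 fold change of 0.27 ± 0.07 (adjusted p = 0.0191). Leaving out wild-type replicate 1, caAkt replicate 1 or caAkt replicate 3 ended this call (adjusted p 0.0512 to 0.0605).

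**Figure D2:**
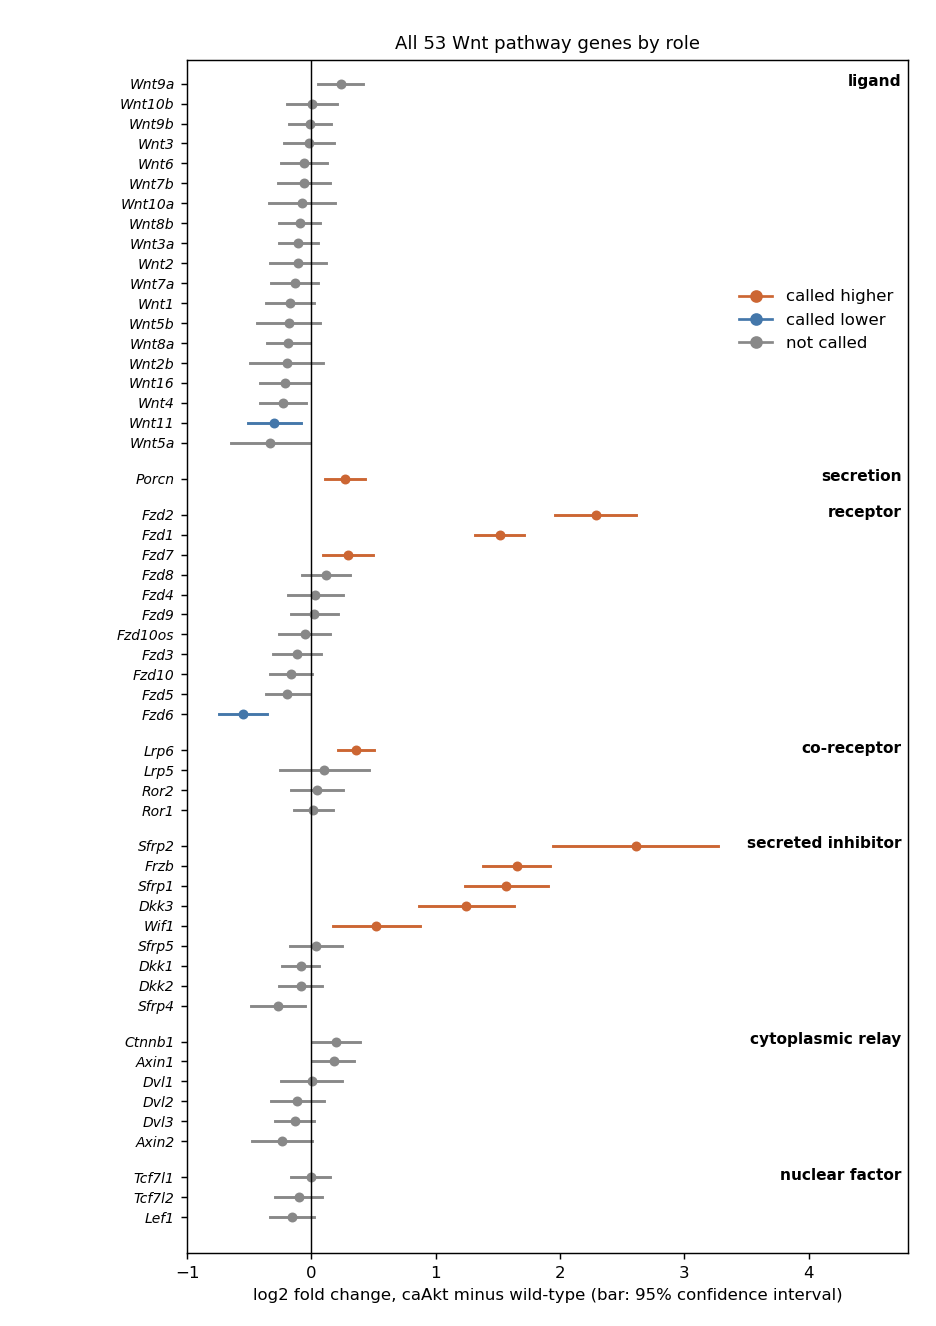
Log2 fold change (caAkt minus wild-type, horizontal axis) of all 53 genes by role, with 95% confidence intervals, coloured by call. The rises of Sfrp2, Fzd2, Frzb, Sfrp1, Fzd1 and Dkk3 stand at 1.24 or more, while every ligand, relay and nuclear gene lies between -0.33 and 0.23.

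Inside the cell, none of the 6 relay genes and none of the 3 nuclear factors was called, against 28.5% of all genes. At the brightest probe sets, 0 of these 9 genes differed by more than 0.24 in either direction. Ctnnb1, which encodes β-catenin, stood at 13.32, 13.28 and 13.04 in wild-type and 13.44, 13.39 and 13.40 in caAkt arrays. The groups did not overlap, but the difference was small, 0.20 ± 0.09 (95% confidence interval 0.01 to 0.39, adjusted p = 0.116), and it was called when the gene's probe sets were averaged (0.20, adjusted p = 0.0248). Its 3 probe sets all gave 0.20. Axin2 was at 7.15, 7.16 and 7.49 against 6.99, 7.16 and 6.94, with overlapping groups and a log2 fold change of -0.24 ± 0.11 (95% confidence interval -0.48 to 0.00, adjusted p = 0.132). Axin1, the constitutive scaffold, was at 0.18 (adjusted p = 0.0968) and was called higher with array weights (0.21, adjusted p = 0.0370). Dvl1, Dvl2 and Dvl3 were at 0.00, -0.11 and -0.14. The nuclear factors Lef1, Tcf7l2 and Tcf7l1 were at -0.16, -0.10 and 0.00. Tcf7l2 was called lower with the mean of its probe sets (-0.25, adjusted p = 0.0139) and with plain probe sets (-0.48, adjusted p = 0.00306). A dimmer probe set of Tcf7l1 was called higher (0.33) in a fit over all named probe sets. Array values report transcript only and give no measure of β-catenin protein or its location.

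Groups that did not overlap were seen for 20 of the 53 members (37.7%), against 42.4% of all genes. The 9 of these that were not called include Ctnnb1, Axin1, Wnt4, Wnt9a and Fzd5.

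Probe sets other than the brightest gave a second reading of many genes from the same arrays. The 53 genes had 106 probe sets, and 35 genes had more than 1. In a fit over all named probe sets, 20 of the 106 rose and 5 fell, against 13.8% and 9.65% of all named probe sets (23.4% in both directions). Of the 8 called genes with several probe sets, 6 (Sfrp1, Frzb, Dkk3, Fzd1, Fzd2 and Fzd6) had a second one called the same way. All 3 of Fzd2 rose, by 1.63 to 2.29, and both of Frzb, by 1.62 and 1.65. The probe sets of Sfrp1 disagreed in size: 4 rose by 1.30 to 2.10, and the fifth was at 0.18 (adjusted p = 0.324). Those of Fzd1 gave 1.52 and 0.53 and those of Dkk3 1.24 and 0.95, all called. Fzd6 had -0.55 and -0.38, both called, and -0.05 at its remaining one. The second probe sets of Lrp6 (0.15) and Fzd7 (0.21) were not called.

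For 5 members that were not called at their brightest probe set, a dimmer one was called. The widest gap was that of Wnt5a, a ligand of the noncanonical branch. At its brightest probe set it stood at 7.27, 6.71 and 7.22 in wild-type and 6.65, 6.72 and 6.82 in caAkt arrays, with overlapping groups (log2 fold change -0.33 ± 0.14, adjusted p = 0.105). At the next it stood at 7.12, 6.90 and 7.00 against 5.80, 5.93 and 5.67. There the groups were well apart, and the log2 fold change was -1.21 ± 0.09 (adjusted p = 3.65e-05 over all probe sets). Its 2 dimmest probe sets were both at 0.00, and the mean of all 4 was called (-0.39, adjusted p = 0.00349). The brightest was itself called without wild-type replicate 2 (-0.51, adjusted p = 0.00419), the low array of its group. The others were Tcf7l2 (-0.48 at one of 4 probe sets), Wnt5b (-0.48 at its dimmer one), Ror2 (0.37) and Tcf7l1 (0.33). Which part of each transcript these probe sets cover was not analysed here.

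**Figure D3:**
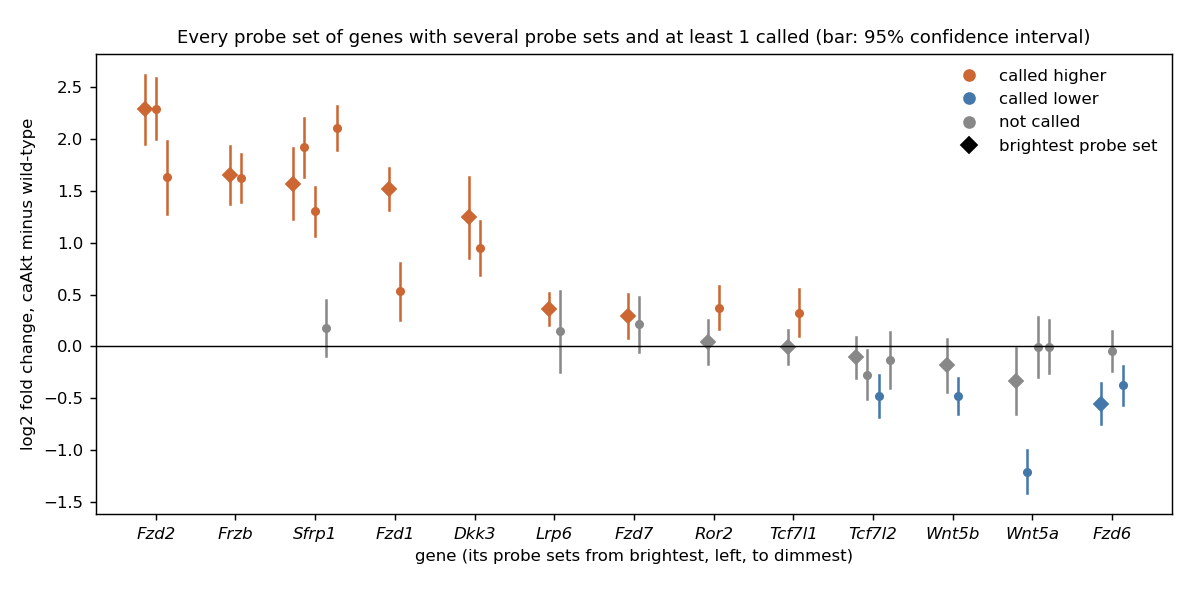
Log2 fold change (caAkt minus wild-type) with 95% confidence interval for every probe set of the members that have several probe sets and at least 1 called; diamonds mark the brightest. All 3 probe sets of Fzd2 lie between 1.63 and 2.29, whereas those of Wnt5a run from -1.21 to 0.00 and those of Sfrp1 from 0.18 to 2.10.

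Other genes of the pathway were taken from a list outside the symbol rule. Of its 83 measured genes 15 rose and 8 fell, 27.7% against 28.5% of all genes, with a median log2 fold change of 0.02. Gsk3b, the kinase that marks β-catenin for destruction and is itself a substrate of Akt, had 9.63, 9.14 and 10.34 in wild-type and 10.47, 10.50 and 10.47 in caAkt arrays. The wild-type arrays spread over more than 1 log2 unit, and the log2 fold change was 0.77 ± 0.24 (adjusted p = 0.0393). With wild-type replicate 2 left out it shrank to 0.49 (adjusted p = 0.0938), and with wild-type replicate 3 left out it was 1.09. Leaving out wild-type replicate 1 or any 1 caAkt array ended the call as well (adjusted p 0.105 to 0.115). In the fit over all named probe sets, its other 5 gave -0.01 to 0.34, of which 1 was called (0.34, adjusted p = 0.0492). The brightest was not called in that fit (adjusted p = 0.0506), nor after a renewed quantile normalization (0.70, adjusted p = 0.0658). The size and the call of this difference thus depended on the probe set and the processing. In the destruction complex list of 15 genes, Apc (0.45) and Macf1 (0.24) rose too, and 0 fell. The call of Macf1 was lost under 9 of 15 alternatives (adjusted p up to 0.682).

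Genes that act on Dishevelled were among the largest rises outside the members. Nkd2, which binds Dishevelled and restrains the signal, rose from 6.99, 7.05 and 6.91 to 8.38, 8.20 and 8.31, a log2 fold change of 1.32 ± 0.08. Dact3 rose by 0.96 ± 0.07 and Dact1 by 0.91 ± 0.11, and both also bind Dishevelled. The other 4 of the 7 genes of that list were not called (42.9% higher, against 16.1% of all genes). The list does not hold Nkd1, which also binds Dishevelled and was placed among the targets. Nkd1 fell by 0.20 (adjusted p = 0.0492), a call lost under 12 of 15 alternatives. Wls, the carrier that brings Wnt proteins to the cell surface, rose by 0.82 ± 0.14, and Igfbp4, a binding protein of insulin-like growth factors that can also restrain Wnt signals, by 0.83 ± 0.09. Among R-spondins and the receptors and ligases of their axis, 0 of 9 rose and 1 fell, the receptor Lgr6 (-0.29). That is 11.1% lower, against 12.4% of all genes. Among other receptors and antagonists, Kremen1 rose by 0.24 and Sostdc1 fell by 0.23. The antagonist Apcdd1 was not called at its brightest probe set (-0.16), but 4 of its 6 probe sets were called higher in the fit over all named probe sets. The calls of Lgr6, Kremen1 and Sostdc1 were lost under 5, 10 and 9 of 15 alternatives (adjusted p up to 0.0961, 0.125 and 0.121).

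In the nuclear partners of β-catenin 1 of 16 rose (6.25%, against 16.1% of all genes), the remodelling ATPase Smarca4 (0.31). A further 3 fell (18.8%, against 12.4%). Those that fell were the adaptors Bcl9 (-0.45 ± 0.09) and Bcl9l (-0.30) and the corepressor Tle4 (-0.27), the last 2 losing their calls under 3 and 5 of 15 alternatives. In the planar polarity and calcium branch 5 of 22 rose (22.7%, against 16.1% of all genes) and 3 fell (13.6%, against 12.4%). The atypical cadherin Celsr1 fell from 6.73, 7.11 and 7.11 to 6.06, 5.84 and 5.81, a log2 fold change of -1.08 ± 0.12. Its relative Celsr2 fell by 0.51 ± 0.08 and the polarity protein Prickle1 by 0.63 ± 0.07, whereas Prickle2 rose by 0.42 ± 0.07. Rock1 (0.50), Plcb1 (0.36), Daam2 (0.31) and Rhoa (0.30) rose as well, but the calls of Daam2, Rhoa and Rock1 were lost under 6, 5 and 3 of 15 alternatives (adjusted p up to 0.125, 0.125 and 0.0620).

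Of 25 measured genes that textbooks describe as Wnt targets in some cell types, members left out, 9 rose and 2 fell (44.0%, against 28.5% of all genes), with a median log2 fold change of 0.09. The rises included Cd44 (2.07 ± 0.08), Fn1 (1.77 ± 0.09), Ccn5 (1.45 ± 0.16), Birc5 (1.21 ± 0.15) and Vcan (1.09 ± 0.15), genes of cell adhesion, matrix and cell division. Whether Wnt signals raised them was not tested. Of the 8 probe sets of Vcan, 1 was called lower. Myc rose by 0.91 ± 0.12, Twist1 by 0.63 and Ptgs2 by 0.55, and Ccnd1, which encodes cyclin D1, by 0.24. Vegfa, an endothelial growth factor, fell by 0.42 and Nkd1, which binds Dishevelled, by 0.20. The calls of Nkd1, Ccnd1 and Vegfa were lost under 12, 7 and 3 of 15 alternatives (adjusted p up to 0.451, 0.0946 and 0.0564). The other 14 targets were not called; 9 lay below 0 and 5 above, from Lgr5 (-0.22) to Ccn4 (0.52, adjusted p = 0.0655). The list holds 4 genes that also stand in the list of other pathway genes.

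**Figure D4:**
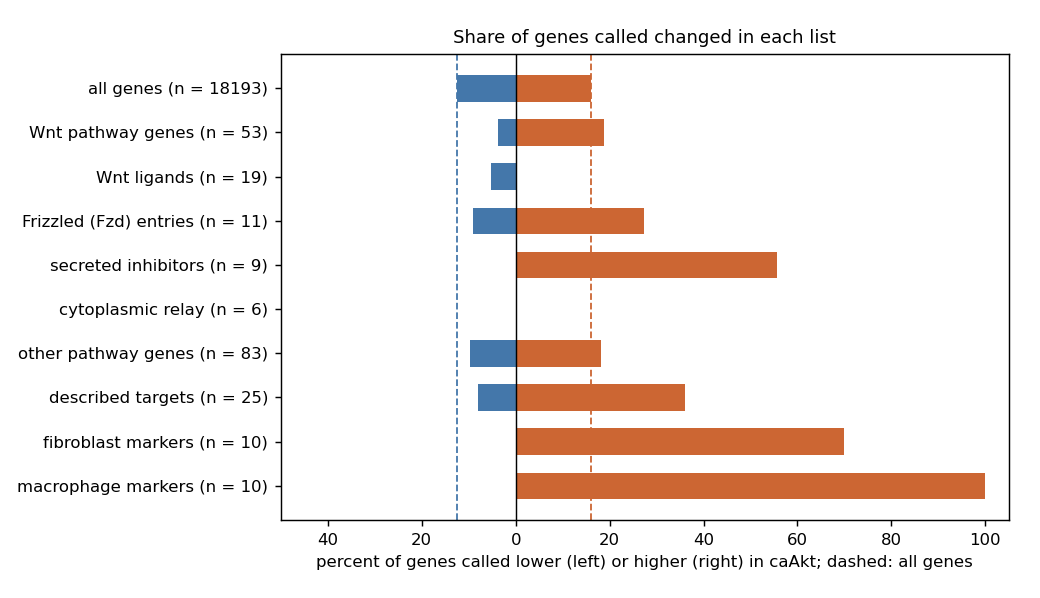
Percent of genes called lower (left of 0) and higher (right of 0) in caAkt hearts in each list, with dashed lines at the shares of all genes (12.4% and 16.1%). Wnt ligands and relay genes show no rise, 5 of 9 secreted inhibitors rose, and all 10 macrophage markers and 7 of 10 fibroblast markers rose.

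Markers of most of the cell types examined were called as well, whereas no T and B cell or Schwann and neuronal marker was. For the counts below, 16.1% of all genes rose and 12.4% fell. The mean log2 value of 10 fibroblast markers was 11.06 to 11.30 in wild-type and 12.17 to 12.34 in caAkt arrays, and 7 of the 10 rose, Postn by 2.31 and Pdgfra by 0.49 (not called under 3 of 15 alternatives). Tcf21, a factor of resident fibroblasts, was at 0.07 and not called. The mean of 10 macrophage markers was 8.93 to 9.12 against 10.17 to 10.53, and all 10 rose. Endothelial markers (10.66 to 10.72 against 10.42 to 10.55) and cardiomyocyte markers (14.67 to 14.82 against 14.57 to 14.63) were lower, with 3 and 4 of 10 called. The mean of the smooth muscle and pericyte markers overlapped between groups (10.57 to 10.70 against 10.50 to 10.69), but 3 of 10 rose, among them Cspg4 (0.85) and Des (0.65), and 2 fell, Abcc9 (-1.69) and Kcnj8 (-0.70). That of the epicardial markers overlapped too (6.62 to 6.84 against 6.65 to 6.74), with 1 of 8 called higher, Aldh1a2 (1.03), and 2 lower, Upk3b (-0.45) and Wt1 (-0.27). T and B cell markers had 0 of 7 called, though their means did not overlap between groups (6.63 to 6.72 against 6.58 to 6.61). Schwann and neuronal markers (7.68 to 7.77 against 7.61 to 7.73) had 0 of 4 called.

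Within the caAkt group the fibroblast markers were lowest in replicate 1, as were 6 of the 10 members that rose (Fzd1, Fzd7, Dkk3, Frzb, Sfrp1 and Sfrp2), whereas macrophage markers were highest in that array. The wild-type group showed another order: fibroblast markers were lowest in replicate 3 (11.06) and highest in replicate 1 (11.30). Fzd7, Dkk3 and Frzb were lowest in wild-type replicate 3, but Porcn, Fzd1, Fzd2, Lrp6, Sfrp1 and Sfrp2 in replicate 1 and Wif1 in replicate 2. How often each array was the lowest over all genes was not counted. The part of these markers in the differences of the Wnt pathway genes was not tested.

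All 10 cardiomyocyte markers were measured at a mean of 14.57 to 14.82 on every array, near the highest values of 15.3 to 15.5. Akt1 stood at 9.79, 9.79 and 10.18 in wild-type and 15.16, 15.10 and 15.08 in caAkt arrays at its brightest probe set, a log2 fold change of 5.19. Of its other 3 probe sets none rose: 1 was called lower (-0.29), and 2 were not called (-0.21 and 0.08). Correlations over all probe sets were 0.995 to 0.997 within a genotype and 0.983 to 0.985 between genotypes. No array stood apart, and no batch is named in the labels.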

How the data were processed

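Arrays of 3 wild-type and 3 caAkt samples were compared, grouped by the labels. The log2 values are as deposited; per the submitters' processing notes, RMA of the R package affy produced them, and versions are not given in the sources used here. RMA aligns the arrays' distributions, which hides any shift common to most genes. Of 45101 probe sets, 34945 had 1 gene symbol in the platform annotation of 2016. Controls (64), several symbols (932) and no symbol (9160) were left out. Each of 18193 genes was read from its brightest probe set.

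The test was limma 3.58.1 under R 4.3.3 (lmFit and eBayes, two-sided, 4 residual degrees of freedom), with Benjamini-Hochberg adjustment over all 18193 genes and a threshold of 0.05. Fold changes are differences of group means (caAkt less wild-type), with moderated standard errors. The steps were tested on simulated data. Precision is limited by having 3 arrays a group. Pseudocounts and filters were not needed. Every member is accounted for by role; values by array are given for called members whose groups do not overlap and for Ctnnb1, Axin2, Gsk3b and Akt1. Of the other lists, called genes are named, up to the 10 with the largest change in each. Wif1 and Wnt5a by array, the eleventh called target (Nkd1), the markers and the uncalled targets Lgr5 and Ccn4 were added after their values were seen. The members and lists were chosen with earlier results of these data known. Protein sequences were not used here. The alternatives tried were the mean of probe sets, plain probe sets, every probe set kept as a row, dim genes removed, renewed quantile normalization, median centring, trend and robust settings, weighting of arrays, a block for the replicate number, the stricter threshold of 0.01, and each array left out in turn.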

Additional observations from a re-analysis of the deposited data

How the results depend on the processing

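Of the 12 members called, 7 (Sfrp1, Sfrp2, Frzb, Dkk3, Fzd1, Fzd2 and Fzd6) kept their direction and call under all 15 alternatives run on single genes. Over all 53 members, 22 of 783 alternative values lost a call and 17 gained one; the cause was not tested. No sign changed among the 178 alternative values of the 12 called members, whereas 42 of the 605 of the uncalled members changed sign, in 14 genes. The number of members that rose was 8 to 9 without single arrays. The number that fell, 2 in the report, was 5 with the mean of probe sets, 1 with all probe sets as rows, 1 with median centring, 1 with an adjusted p under 0.01 and 1 to 3 without single arrays. The median log2 fold change of the members moved from -0.06 to -0.0096 when dim genes were left out, where 47 members remain (whether the dimmest ligands were above background was not tested), and was -0.10 to -0.03 without single arrays.

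Of the other pathway genes, 9 to 14 rose and 5 to 7 fell without single arrays, and 6 rose and 4 fell at an adjusted p under 0.01. The fewest rises, 9, were found without wild-type replicate 2, and 5 fell without wild-type replicate 1 or caAkt replicate 1 or 3. Of the targets, 8 to 9 rose and 0 to 2 fell without single arrays; 1 fell with all probe sets as rows, 1 with median centring, 1 with trend and robust settings, 4 with array weights and 0 at an adjusted p under 0.01. Akt1 reversed to -0.29 with plain probe sets, which leave out its brightest one.

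Deviations of same-numbered arrays correlated at 0.27, 0.03 and -0.12, and those of differently numbered arrays at -0.27 to 0.23. With 3 arrays a group these values cannot settle whether the replicate numbers pair the arrays. With the replicate number as a block, 10 members rose and 1 fell, Wnt11 being lost (adjusted p = 0.0644), and 1 target fell. Over all genes, a renewed quantile normalization gave 2669 calls higher in caAkt and 2708 lower, against 2929 and 2254.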
